A study of Mus musculus with 8 samples.

Results

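Thrombospondins are secreted matrix glycoproteins that signal to neighbouring cells through receptors at the cell surface, among them CD36 and CD47. The 7 genes described here are the ligands Thbs1, Thbs2, Thbs3 and Thbs4, the receptors Cd36 and Cd47, and Sirpa, whose product is the binding partner of CD47 on myeloid cells. They were chosen by name and were all found among the 21848 genes of the count tables. Their UMIs (unique molecular identifiers, 1 per captured transcript molecule) were read from single-cell transcriptomes of cortex taken 6 days after photothrombosis (PT), a model of ischemic stroke in which light-activated dye clots the cortical vessels. In total 8 mice were sampled with 1 library each, 4 given ancrod, a protease that depletes fibrinogen from the blood, and 4 control mice given saline. Ancrod was delivered at 2.4 U (2.0 mg per kg) per day by a subcutaneous minipump implanted 2 days before PT and left until perfusion, and control minipumps held saline. All 8 mice had the same lesion of the right sensorimotor cortex, and no uninjured mouse entered these data. The labels give genotype Bl/J6, female sex and unenriched cells for every mouse and state no age, whereas the methods of the study name C57BL/6N mice of both sexes, aged 8 to 12 weeks. The excised tissue held the lesion and its spared surround without meninges. Mice 1 to 3 of each group belong to batch 1 and mouse 4 of each group to batch 2, where batch stands for injury and sequencing according to the labels.

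In the nervous system thrombospondins are known as products of astrocytes that promote synapse formation through the calcium channel subunit encoded by Cacna2d1, and in wounds as products of platelets, macrophages and fibroblasts that inhibit angiogenesis and, in the case of thrombospondin-1, activate latent TGF-β. Thbs1 and Thbs2 encode trimeric proteins with the properdin-type repeats that bind CD36, and Thbs3 and Thbs4 encode pentameric proteins without these repeats. CD36 is a scavenger receptor that also takes up oxidised lipids and long-chain fatty acids. CD47 is found on most cells and, by binding SIRPα on phagocytes, signals that a cell should not be engulfed, for which SIRPα recruits the phosphatases encoded by Ptpn6 and Ptpn11.

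In the mouse genome (build GRCm39, coordinates of the GENCODE vM39 annotation) the 7 genes lie apart from each other on 6 chromosomes. Thbs1 spans 15.6 kb at chr2:117941974-117957616 on the plus strand, Thbs2 spans 28.8 kb at chr17:14885761-14914528 on the minus strand, Thbs3 spans 11.7 kb at chr3:89122461-89134144 on the plus strand and Thbs4 spans 43.4 kb at chr13:92888095-92931501 on the minus strand. Cd36 spans 107.6 kb at chr5:17986432-18094067 on the minus strand, Cd47 spans 114.5 kb at chr16:49620896-49735373 on the plus strand and Sirpa spans 40.1 kb at chr2:129434039-129474148 on the plus strand. All 7 are protein-coding, and exonic and intronic reads were counted together. The only annotated gene that overlaps a member and is listed in the count tables is Mtx1, on the strand opposite to Thbs3. Sirpa has close paralogs in Sirpb1a, Sirpb1b and Sirpb1c, so the division of reads among these 4 genes is uncertain.

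The libraries held 97861434 to 122758649 UMIs in control mice and 126682918 to 142139441 in ancrod mice, so total depth did not overlap between the groups. Values that moved when every cell was thinned to 2000 UMIs are given beside the results. Thinning also gives each cell the same weight in a sum per mouse, so a move after it cannot be assigned to depth. Droplets with at least 2000 UMIs and below 20% mitochondrial UMIs numbered 46216 and held 55871 to 106988 UMIs of the 7 genes per mouse. Removal of 2144 presumed doublets left 44072 cells. Of 45940 distinct barcodes, 274 occurred in more than 1 library, with 3 to 15 shared by any pair of libraries. The cells formed 54 clusters on expression without the 7 genes and without the pathway genes described here. Clusters were named from marker genes, and the names stand for resemblance to a class. The comparison covered 18 populations, of which 14 are named classes and 4 are clusters whose leading genes went against the best-scoring name. These 4 were cluster 10 (led by Gkn3, Sema3g and Bmx), cluster 16 (F10, Ccr2, S100a4 and Chil3), cluster 18 (Lama1, Inmt and Aldh1a2) and cluster 25 (Rgs5, Abcc9 and Higd1b). A further 3890 cells stayed unnamed, making up 8.48% of cells in control and 8.98% in ancrod mice. A level is given as UMIs of the gene per 1000000 UMIs (counts per 1000000, CPM) of the class in 1 mouse and is compared only within a gene. In droplets with at most 100 UMIs, which stand for free RNA, the level pooled over the 8 libraries was 118 CPM for Thbs1, 30.4 CPM for Thbs2, 10.0 CPM for Thbs3, 2.33 CPM for Thbs4, 16.4 CPM for Cd36, 156 CPM for Cd47 and 289 CPM for Sirpa. These levels give the makeup of free RNA and not how much of it entered a cell, which was not estimated. They are no floor for a class, since endothelial-like cells had a median of 9.48 CPM of Sirpa.

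Thbs1 came mainly from inflammatory macrophage-like cells, cluster 16 and monocyte-like cells. Of its 121236 UMIs, 45.6% came from inflammatory macrophage-like cells (38.8 to 53.0% among the 8 mice), which were 6.43% of cells. Cluster 16 gave 20.6% and monocyte-like cells gave 10.5% of Thbs1 UMIs while making up 2.25% and 1.11% of cells. The monocyte-like class was cluster 31 alone, led by Adgre4, Gm9733, Plac8 and Ear2. Fibroblast-like cells gave 10.0%, with a wide spread among mice of 0.916 to 32.4%. The level of Thbs1 was highest in monocyte-like cells, at a median of 1860 CPM (923 to 2260 CPM), followed by cluster 16 at 1050 CPM (594 to 1560 CPM), inflammatory macrophage-like cells at 658 CPM (436 to 705 CPM) and vascular smooth muscle-like cells at 497 CPM (207 to 1510 CPM). Neutrophil-like cells had 286 CPM (90.4 to 772 CPM) and fibroblast-like cells 138 CPM (52.4 to 399 CPM). Border-associated macrophage-like cells, the resident macrophages of the brain's borders, had 79.7 CPM and microglia-like cells 16.6 CPM, both under the level in free RNA. A Thbs1 UMI was found in 84.2% of inflammatory macrophage-like cells (median depth 29110 UMIs), and in 3.43% of endothelial-like cells (10071 UMIs). When every cell was thinned to 2000 UMIs these shares were 53.5% and 0.518%.

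Within classes Thbs1 followed clusters. In the large inflammatory macrophage-like cluster 1 (led by Gpnmb, Lyz2 and Ms4a7) the level was 646 ± 124 CPM in control and 747 ± 106 CPM in ancrod mice (SD, n = 4 each), whereas in the dividing cluster 34 (led by H1f5, H2ac8 and Pclaf) it was 142 ± 102 and 138 ± 47.0 CPM. The ranges of the clusters did not overlap in either group. Among fibroblast-like cells, cluster 32 (led by Penk and Ccn3) had 424 ± 252 CPM in 3 control and 273 ± 45.6 CPM in 4 ancrod mice, compared with 40.9 ± 11.1 and 138 ± 101 CPM in cluster 27 (led by Lrrc17 and Col8a1).

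Thbs2 was a fibroblast gene in this tissue. Fibroblast-like cells were 2.97% of cells and gave 69.9% of the 29572 Thbs2 UMIs (53.3 to 86.7% among mice), and cluster 18 (2.17% of cells), which scored highest for fibroblast markers, gave 18.9% (6.24 to 31.2%). Their median levels were 307 CPM (238 to 396 CPM) and 151 CPM (134 to 184 CPM). The third source was astrocyte-like cells with 5.44% of UMIs and a level of 30.4 CPM (18.7 to 48.7 CPM), the same as in free RNA, and pericyte-like cells had 12.8 CPM, below it. The myeloid classes that carried Thbs1 were near 0 for Thbs2, with 0.414 CPM in inflammatory macrophage-like cells and 0.166 CPM in cluster 16. A Thbs2 UMI was present in 91.9% of fibroblast-like cells (median depth 47248 UMIs) and 4.03% of microglia-like cells (15335 UMIs), or 40.5% and 0.462% after thinning. Cluster 27 held more Thbs2 than cluster 32, at 405 ± 57.4 against 249 ± 47.6 CPM in control mice (n = 4 and 3) and 360 ± 91.6 against 226 ± 26.4 CPM in ancrod mice (n = 4 each), the reverse of the order for Thbs1.

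Thbs3 was shared between fibroblasts and glia. Of 6705 UMIs, 36.3% came from fibroblast-like cells (16.2 to 59.2%), 26.5% from astrocyte-like cells (14.6 to 51.2%) and 15.2% from cluster 18. In control mice astrocyte-like cells gave more (30.4%) than fibroblast-like cells (25.4%). The levels lay close together, at 37.2 CPM in fibroblast-like cells (29.2 to 57.5 CPM), 30.6 CPM in astrocyte-like cells (27.5 to 49.4 CPM), 28.2 CPM in oligodendrocyte precursor-like cells and 26.7 CPM in cluster 18. Ependymal-like cells, the ciliated lining of the ventricles, had the highest median, 93.4 CPM, but reached the minimum of 10 cells in only 3 mice and were not tested. Microglia-like cells had 0.818 CPM. Among astrocyte-like clusters, cluster 39 (led by Myoc and Tgm1) had 52.0 ± 3.28 CPM in control mice and cluster 8 (led by Ntsr2 and Grin2c) had 22.3 ± 2.29 CPM (SD, n = 4 each), with ranges that did not overlap.

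Thbs4 was an astrocyte gene, with 92.8% of its 1927 UMIs in astrocyte-like cells (70.9 to 97.0% among mice). Its level there was 30.8 CPM (12.2 to 52.5 CPM), and 8.53% of these cells held a UMI at a median depth of 10629 UMIs, against 0.127% of endothelial-like cells at 10071 UMIs. After thinning the shares were 3.58% and 0.0182%. Oligodendrocyte precursor-like cells had a median of 1.89 CPM and fibroblast-like cells 0.208 CPM. No Thbs4 UMI was counted in cluster 10, cluster 16, border-associated macrophage-like, T or NK-like, monocyte-like or vascular smooth muscle-like cells. With 0 of 991 cells in cluster 16 and 0 of 826 border-associated macrophage-like cells, shares of cells with a UMI of up to 0.303% and 0.363% are allowed, limits that cover counting error over pooled cells and neither capture nor the spread among mice.

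**Figure D1:**
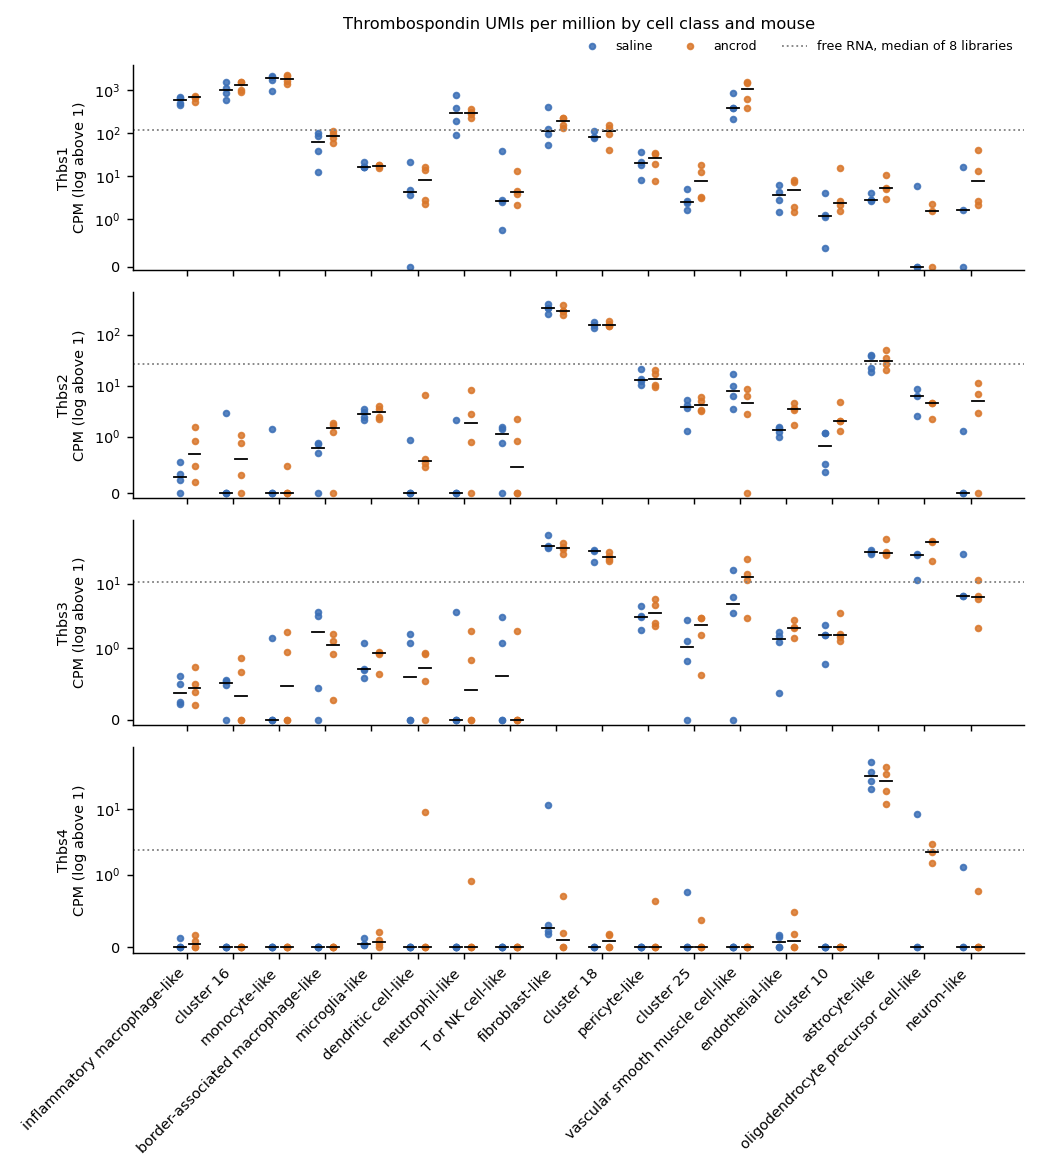
Levels of Thbs1, Thbs2, Thbs3 and Thbs4 in each class or cluster, in CPM on an axis that is logarithmic above 1 CPM and linear below, with 1 point per mouse for control (saline) and ancrod mice, short lines at the group medians and a dotted line at the median of free RNA over the 8 libraries. Thbs1 is highest in monocyte-like cells (median 1860 CPM) and Thbs2 in fibroblast-like cells (307 CPM). Thbs3 has medians of 37 CPM in fibroblast-like and 31 CPM in astrocyte-like cells, and Thbs4 stands out only in astrocyte-like cells (30.8 CPM).

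Cd36 marked macrophages and monocytes and was almost absent from the vasculature. Its 24482 UMIs came from inflammatory macrophage-like cells (31.9%, 19.1 to 49.9% among mice), border-associated macrophage-like cells (30.3%, 21.6 to 42.6%) and cluster 16 (29.1%, 8.8 to 42.5%), with 3.81% from monocyte-like cells. This order rests on single mice and differs between the groups. In control mice cluster 16 came first (36.0%), then border-associated (31.4%) and inflammatory macrophage-like cells (21.2%), whereas in ancrod mice inflammatory macrophage-like cells came first (39.0%). Without the third ancrod mouse inflammatory macrophage-like cells gave 26.8%, less than border-associated macrophage-like cells (32.8%) and cluster 16 (31.4%), and without the fourth ancrod mouse cluster 16 (31.3%) came before them (30.9%). Border-associated macrophage-like cells had the highest level, a median of 482 CPM (285 to 589 CPM) while being 1.87% of cells. Cluster 16 followed with 314 CPM (174 to 506 CPM), monocyte-like cells with 158 CPM (50.6 to 234 CPM) and inflammatory macrophage-like cells with 72.9 CPM (46.1 to 185 CPM). Dendritic-like cells had 17.3 CPM and microglia-like cells 1.83 CPM, so that the tissue's largest myeloid class contributed little Cd36. In 5516 endothelial-like cells, the class in which CD36 is known as the receptor for the angiogenesis-inhibiting action of thrombospondin-1, 31 Cd36 UMIs were counted (0.222 CPM), under the 16.4 CPM in free RNA. A Cd36 UMI was present in 63.0% of border-associated macrophage-like cells (median depth 18451 UMIs) and in 0.308% of endothelial-like cells (10071 UMIs), which were 34.6% and 0.0284% after thinning.

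Within border-associated macrophage-like cells Cd36 was concentrated in cluster 24 (led by Cd163, Ccl8 and Cd209f), at 486 ± 141 CPM in control and 488 ± 92.1 CPM in ancrod mice (SD, n = 4 each). Cluster 44 (led by Ccl8, Pf4 and Cbr2) had 67.1 ± 41.5 and 78.3 ± 49.0 CPM, with no overlap between the clusters in either group.

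Cd47 was present in every class. Of 164234 UMIs, microglia-like cells gave 25.6% (18.9 to 33.1% among mice) while making up 39.3% of cells, and endothelial-like cells gave 14.8% (8.01 to 21.4%) from 12.5% of cells. Inflammatory macrophage-like cells gave 15%. Its level, however, was highest in leukocytes that made up few of the cells. Dendritic-like cells had 558 CPM (488 to 576 CPM), monocyte-like cells 445 CPM (340 to 596 CPM), T or NK-like cells 420 CPM (410 to 475 CPM) and neutrophil-like cells 414 CPM (349 to 551 CPM). Endothelial-like cells had 242 CPM (221 to 288 CPM), astrocyte-like cells 184 CPM (174 to 198 CPM) and fibroblast-like cells 166 CPM (153 to 173 CPM). Microglia-like cells had 138 CPM (113 to 177 CPM), below the 156 CPM in free RNA, and pericyte-like cells were lowest with 97.1 CPM (89.8 to 111 CPM).

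The microglial value hid a difference among clusters. Cluster 19, led by the interferon response genes Ifit2 and Mx1, had 384 ± 42.6 CPM of Cd47 in control and 361 ± 23.5 CPM in ancrod mice (SD, n = 4 each), and cluster 5, led by the interferon-inducible Ifi213 and Ifi206, had 204 ± 28.9 and 192 ± 15.8 CPM. The other 9 microglia-like clusters had means of 83.2 to 143 CPM in both groups. The lowest values were in cluster 17 (led by Bcl2a1a, Lrrc63 and Il1a), at 83.2 ± 9.50 CPM in control and 88.1 ± 9.40 CPM in ancrod mice. Cluster 19 did not overlap with any other microglia-like cluster, its lowest mouse standing at 326 CPM and the highest mouse of cluster 5 at 228 CPM.

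Sirpa was highest in phagocytes. Microglia-like cells gave 70.8% of its 275085 UMIs (59.5 to 78.7% among mice) and had its highest level, 652 CPM (579 to 715 CPM), in contrast to their low Cd47. Border-associated macrophage-like cells had 471 CPM (401 to 557 CPM), inflammatory macrophage-like cells 440 CPM (398 to 473 CPM), cluster 16 354 CPM (313 to 388 CPM), monocyte-like cells 342 CPM (202 to 424 CPM) and neutrophil-like cells 312 CPM (253 to 409 CPM). Astrocyte-like cells had 226 CPM (186 to 279 CPM), dendritic-like cells 143 CPM and neuron-like cells 139 CPM, all under the 289 CPM in free RNA. T or NK-like cells, with 9.78 CPM, and endothelial-like cells, with 9.48 CPM, stood far lower. A Sirpa UMI was found in 98.6% of microglia-like cells (median depth 15335 UMIs) and 7.5% of T or NK-like cells (8615 UMIs), or 70.7% and 2.03% after thinning. Among microglia-like clusters Sirpa was highest in cluster 0 (led by P3h2 and Csmd3), at 856 ± 38.1 CPM in control and 787 ± 62.5 CPM in ancrod mice, and lowest in the dividing cluster 28 (led by Mki67), at 460 ± 23.7 and 433 ± 66.7 CPM. Dividing inflammatory macrophage-like cells of cluster 34 also held less Sirpa than cluster 1, at 289 ± 41.4 against 468 ± 8.38 CPM in control mice.

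**Figure D2:**
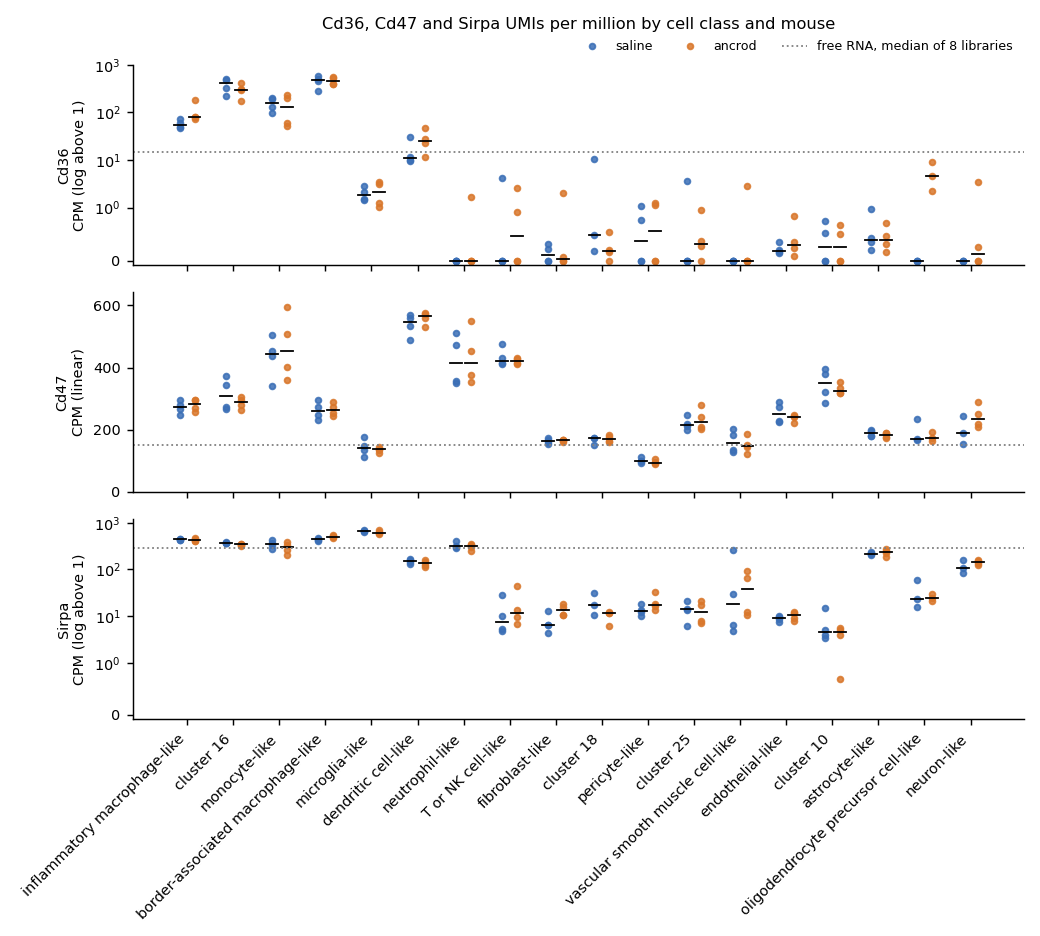
Levels of Cd36, Cd47 and Sirpa in each class or cluster in CPM, with 1 point per mouse for control and ancrod mice, short lines at the group medians and a dotted line at the median of free RNA, on axes that are logarithmic above 1 CPM for Cd36 and Sirpa and a linear axis for Cd47. Cd36 is high in border-associated macrophage-like cells and cluster 16 (medians 482 and 314 CPM), class medians of Cd47 lie between 97.1 and 558 CPM, and Sirpa separates microglia-like cells and other phagocytes from endothelial-like cells (652 against 9.48 CPM).

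**Figure D3:**
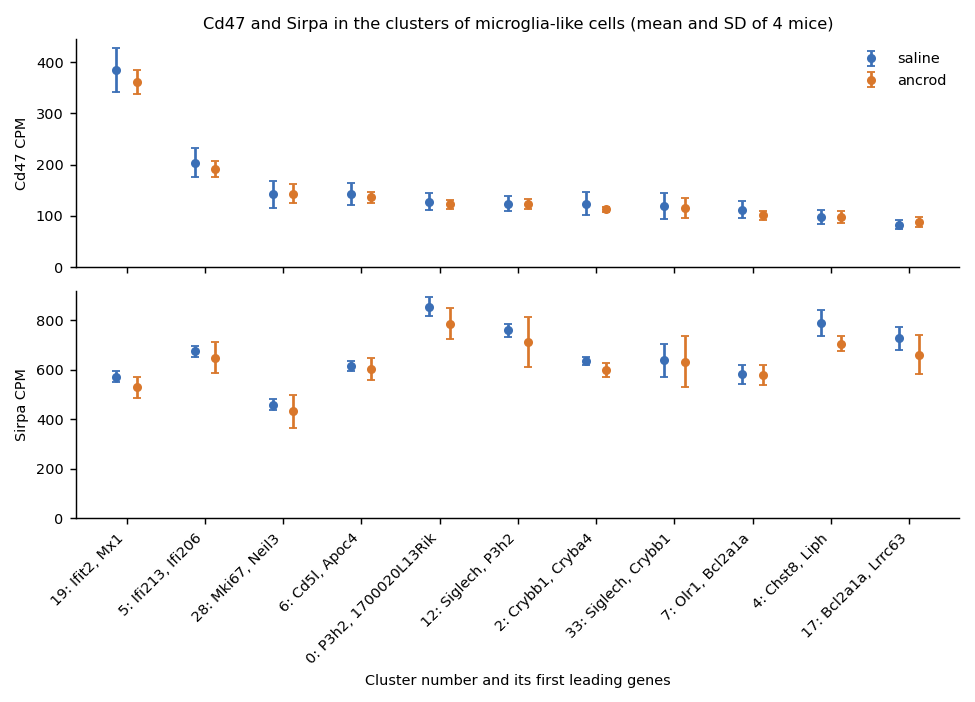
Levels of Cd47 and Sirpa in the microglia-like clusters in CPM, as the mean (point) and SD (bar) of 4 control and 4 ancrod mice, with clusters in the order of their Cd47 level. The interferon gene-led cluster 19 has the highest Cd47 (mean 384 CPM in control mice), and the dividing cluster 28 the lowest Sirpa (460 CPM).

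Whether neighbouring classes in these orders differed was tested within mice by a two-sided exact sign-flip permutation test on log2(CPM + 1). Neighbours and the higher of each pair were taken from the medians of the same values, so the direction was set by the ranking. The p-values describe only how consistently a pair stood apart across mice and not by how much. None of 119 neighbour pairs passed after Benjamini-Hochberg adjustment, whereas 31 had an unadjusted p under 0.05 and 13 reached 0.00781, the smallest p that 8 mice allow, each in 8 of 8 mice, with an adjusted p of 0.0715. With coarser clustering 16 of 84 pairs passed (adjusted p = 0.041 by the same exact test), and with unnamed clusters merged into their best-scoring class 16 of 91 (adjusted p = 0.0444). Every pair that passed had the exact p of 0.00781, as had the 13 pairs above. Passing in these settings therefore marks no more consistent difference than in those 13. Among those that passed in both were, for Thbs2, fibroblast-like above astrocyte-like cells, for Cd36, border-associated above inflammatory macrophage-like cells, which are no neighbours where cluster 16 is kept apart, and for Sirpa, microglia-like above border-associated macrophage-like cells. The 13 pairs at the smallest p included, for Thbs1, monocyte-like cells above cluster 16 by 0.65 ± 0.32 (SD) and cluster 16 above inflammatory macrophage-like cells by 0.86 ± 0.37 on the log2 scale. For Thbs2, astrocyte-like cells stood above pericyte-like cells by 1.06 ± 0.23. For Cd36, border-associated macrophage-like cells stood above cluster 16 by 0.49 ± 0.37, and inflammatory macrophage-like cells stood above dendritic-like cells by 1.95 ± 0.53. For Sirpa, microglia-like cells stood above border-associated macrophage-like cells by 0.46 ± 0.21. Fibroblast-like cells held more Thbs2 than cluster 18 in 7 of 7 mice, with an exact p of 0.0156 that is the smallest for 7 mice. Neighbours that did not differ beyond their spread included inflammatory macrophage-like and vascular smooth muscle-like cells for Thbs1 (exact permutation p = 0.93), monocyte-like and T or NK-like cells for Cd47 (p = 0.57) and border-associated and inflammatory macrophage-like cells for Sirpa (p = 0.102).

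The study asked what role fibrinogen has in activating fibroblasts around vessels after stroke, and the next comparisons set ancrod against control mice. Within classes, none of the 7 genes changed past an adjusted p of 0.05. Sums of UMIs per mouse were compared in each class by the quasi-likelihood test of edgeR, fitted across all genes. Of 68 pairs of a member and a class that passed the filter on low counts, 0 passed, where 0.00877% of all 170991 gene and class pairs did. The lowest adjusted p was 0.512, and DESeq2 also called 0 of them. DESeq2 left some genes without an adjusted p, such as 8412 of 9040 in pericyte-like and 5130 of 12022 in fibroblast-like cells. Genes left so could not be called. In 5 of the 68 pairs the unadjusted p was under 0.05, against 5.57% of all pairs, and in 3 the groups did not overlap, against 3.94%. The pairs were tested 18 times for Cd47, 18 for Sirpa, 13 for Thbs1, 6 each for Thbs2, Thbs3 and Cd36 and once for Thbs4.

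In its leading source, each ligand was at a similar mean in both groups, although the intervals leave room for differences. Thbs1 in inflammatory macrophage-like cells was 436, 678, 656 and 499 CPM in control mice 1 to 4 and 680, 705, 661 and 519 CPM in ancrod mice 1 to 4, with overlapping groups. The log2 fold change was 0.14 ± 0.14 (SE, edgeR adjusted p = 1; 95% interval of -0.14 to 0.42), 0.22 after thinning, and it ranged from 0.03 without the first to 0.24 without the second control mouse. Thbs1 in monocyte-like cells was 1980, 2100, 1730 and 923 CPM in control and 2060, 2260, 1380 and 1610 CPM in ancrod mice, again overlapping. Thbs2 in fibroblast-like cells was 396, 328, 333 and 248 CPM in control and 238, 286, 285 and 386 CPM in ancrod mice, with the lowest and highest value of each group crossing the other. The log2 fold change was -0.14 ± 0.18 (SE, edgeR adjusted p = 0.876; 95% interval of -0.50 to 0.22). It was -0.44 in batch 1 alone, -0.04 after thinning, -0.03 without the first and -0.32 without the fourth ancrod mouse, -0.04 without the first and -0.25 without the fourth control mouse. It turned to 0.05 with coarser clustering and also when unnamed clusters were merged into their best-scoring class. Thbs3 in fibroblast-like cells was 35.1, 37.5, 57.5 and 38.8 CPM in control and 42.0, 29.2, 37.0 and 34.3 CPM in ancrod mice. The third control mouse, with only 28 fibroblast-like cells, stood above all others, and the log2 fold change of -0.22 ± 0.17 (SE, edgeR adjusted p = 0.737) was -0.07 without it. Thbs4 in astrocyte-like cells was 20.7, 37.5, 27.3 and 52.5 CPM in control and 19.4, 45, 12.2 and 34.3 CPM in ancrod mice, so that the groups overlapped over most of their range. Its log2 fold change was -0.25 ± 0.37 (SE, edgeR adjusted p = 0.999; 95% interval of -0.97 to 0.48) and turned to 0.03 without the fourth control mouse and to 0.31 after thinning.

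Among the receptors, Cd47 was the most even. In microglia-like cells it was 148, 136, 113 and 177 CPM in control and 146, 135, 139 and 125 CPM in ancrod mice, with a log2 fold change of -0.03 ± 0.11 (SE, edgeR adjusted p = 0.987; 95% interval of -0.25 to 0.19). The sign of this value followed single mice, being 0.08 without the fourth control mouse and 0.12 in batch 1 alone, with -0.11 after thinning. Over the 18 classes the log2 fold change of Cd47 ran from -0.19 in cluster 16 to 0.23 in neuron-like cells. Sirpa in microglia-like cells was 715, 644, 660 and 677 CPM in control and 579, 690, 607 and 623 CPM in ancrod mice. The groups overlapped through the second ancrod mouse, and the log2 fold change was -0.07 ± 0.07 (SE, edgeR adjusted p = 0.931; 95% interval of -0.21 to 0.07), or -0.11 without that mouse. Over the 11 microglia-like clusters the mean of Sirpa was lower in ancrod mice in all 11, and the groups did not overlap in 1 of them, cluster 4 (743 to 861 CPM in control and 665 to 737 CPM in ancrod mice). Cd47 had a lower mean in ancrod mice in 8 of the same 11 clusters. In microglia-like cells as a whole, groups did not overlap for 1.98% of genes. No test was run over these clusters, which share their mice. Shares over all genes were not computed for single clusters, so neither count for Sirpa is read as a result. Sirpa in cluster 16 was 388, 363, 361 and 361 CPM in control and 313, 341, 347 and 348 CPM in ancrod mice without overlap, as were 2.96% of genes in this cluster, but its unadjusted p of 0.0809 (edgeR quasi-likelihood test) was above 0.05. Cd36 in border-associated macrophage-like cells was 456, 589, 507 and 285 CPM in control and 398, 549, 533 and 400 CPM in ancrod mice, with overlapping groups.

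Cd36 in inflammatory macrophage-like cells was higher in ancrod mice without passing the adjusted threshold. The levels were 46.1, 60.6, 72.6 and 48.2 CPM in control and 78.7, 73.2, 185 and 79.5 CPM in ancrod mice. The groups did not overlap, although the highest control and lowest ancrod mouse were less than 1 CPM apart, and the third ancrod mouse stood far above the rest. Non-overlap was seen for 1.95% of genes in this class and an unadjusted p under 0.05 for 3.26%. The log2 fold change was 0.84 ± 0.29 (SE, edgeR adjusted p = 1), 0.87 in batch 1 alone, 0.39 without the third ancrod mouse and 0.20 when unnamed clusters were merged into their best-scoring class, which moves cluster 16 into this class. Within the class, the dividing cluster 34 went from 80.0 ± 53.7 CPM in control to 179 ± 32.0 CPM in ancrod mice and cluster 1 from 53.1 ± 14.1 to 90.1 ± 67.0 CPM (SD, n = 4 each). The highest control and lowest ancrod mouse both stood at 146 CPM in cluster 34, and the groups overlapped in cluster 1. No test was run on these clusters, and shares over all genes were not computed for them. Monocyte markers in inflammatory macrophage-like cells (8 of 8 with a UMI) summed to 209 to 239 CPM in control and 128 to 521 CPM in ancrod mice. The third ancrod mouse had 318 CPM, and the part of these markers in the result was not tested. Of the 6 classes tested for Cd36, the log2 fold change was higher in ancrod mice in 4 and lower in 2. Cluster 16 was lower, at 386 ± 135 CPM in control and 299 ± 99.7 CPM in ancrod mice. Monocyte-like cells were also lower, at 153 ± 47.1 and 137 ± 94.5 CPM (SD, n = 4 each).

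The other 4 pairs with an unadjusted p under 0.05 lay outside the leading sources and at low levels or in small classes. An unadjusted p under 0.05 was found for 8.7% of all genes in endothelial-like, 4.39% in astrocyte-like, 4.24% in vascular smooth muscle-like and 8.33% in fibroblast-like cells. Thbs2 in endothelial-like cells was 1.00, 1.22, 1.53 and 1.49 CPM in control and 3.30, 1.71, 3.60 and 4.49 CPM in ancrod mice, without overlap, as in 3.83% of genes of this class. This gave a log2 fold change of 1.30 ± 0.30 (SE, edgeR adjusted p = 0.561), 1.13 in batch 1 alone. All of these levels were under the Thbs2 level in free RNA of the same libraries, 10.5 to 40.6 CPM in control and 21.1 to 83.3 CPM in ancrod mice. Fibroblast markers in endothelial-like cells (6 of 7 with a UMI, Dpt at 0) summed to 11 to 32 CPM in control and 12.4 to 248 CPM in ancrod mice, and their part in the result was not tested.

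Thbs1 in astrocyte-like cells was 2.59, 2.77, 3.91 and 2.71 CPM in control and 10.6, 5.28, 4.97 and 2.90 CPM in ancrod mice, overlapping only through the fourth ancrod mouse. All of these levels were under the Thbs1 level in free RNA of the same libraries, 71.9 to 144 CPM in control and 119 to 161 CPM in ancrod mice. The log2 fold change was 1.05 ± 0.36 (SE, edgeR adjusted p = 0.999), 1.22 in batch 1 alone and 0.60 with presumed doublets kept. Inflammatory macrophage markers in astrocyte-like cells (6 of 6 with a UMI) summed to 43.1 to 67.4 CPM in control and 47.8 to 113 CPM in ancrod mice, and their part in the result was not tested.

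Thbs1 in vascular smooth muscle-like cells, the contractile cells of arterial walls, was 386, 370, 841 and 207 CPM in control and 1510, 375, 1480 and 608 CPM in ancrod mice. The second ancrod mouse stood among the controls, and the log2 fold change was 1.15 ± 0.46 (SE, edgeR adjusted p = 0.986), 1.11 in batch 1 alone. Only 225 cells made up this class. Inflammatory macrophage markers in it (5 of 6 with a UMI, Arg1 at 0) summed to 130 to 679 CPM in control and 143 to 2050 CPM in ancrod mice, the highest value being that of the second ancrod mouse. Itga4, among these markers, had a median of 91.3 CPM in this class and 84.7 CPM in inflammatory macrophage-like cells, so the sum is not specific to macrophages. Monocyte markers (8 of 8 with a UMI) summed to 0 to 3.52 CPM in control and 2.05 to 70.2 CPM in ancrod mice, the highest value being that of the first ancrod mouse, which also had the highest Thbs1. The part of either list in the result was not tested.

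Sirpa in fibroblast-like cells was 13.1, 6.44, 4.37 and 6.38 CPM in control and 17.9, 15.8, 10.5 and 10.7 CPM in ancrod mice, overlapping through the first control mouse. The log2 fold change was 0.78 ± 0.29 (SE, edgeR adjusted p = 0.57), 0.73 in batch 1 alone, 0.28 with presumed doublets kept and 0.06 when cluster 18 was merged into the class. These levels were far below the 289 CPM in free RNA. In fibroblast-like cells microglia markers (8 of 8 with a UMI) summed to 184 to 238 CPM in control and 195 to 240 CPM in ancrod mice and inflammatory macrophage markers (6 of 6) to 24.8 to 45.7 and 39.6 to 112 CPM, and their part in the result was not tested.

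**Figure D4:**
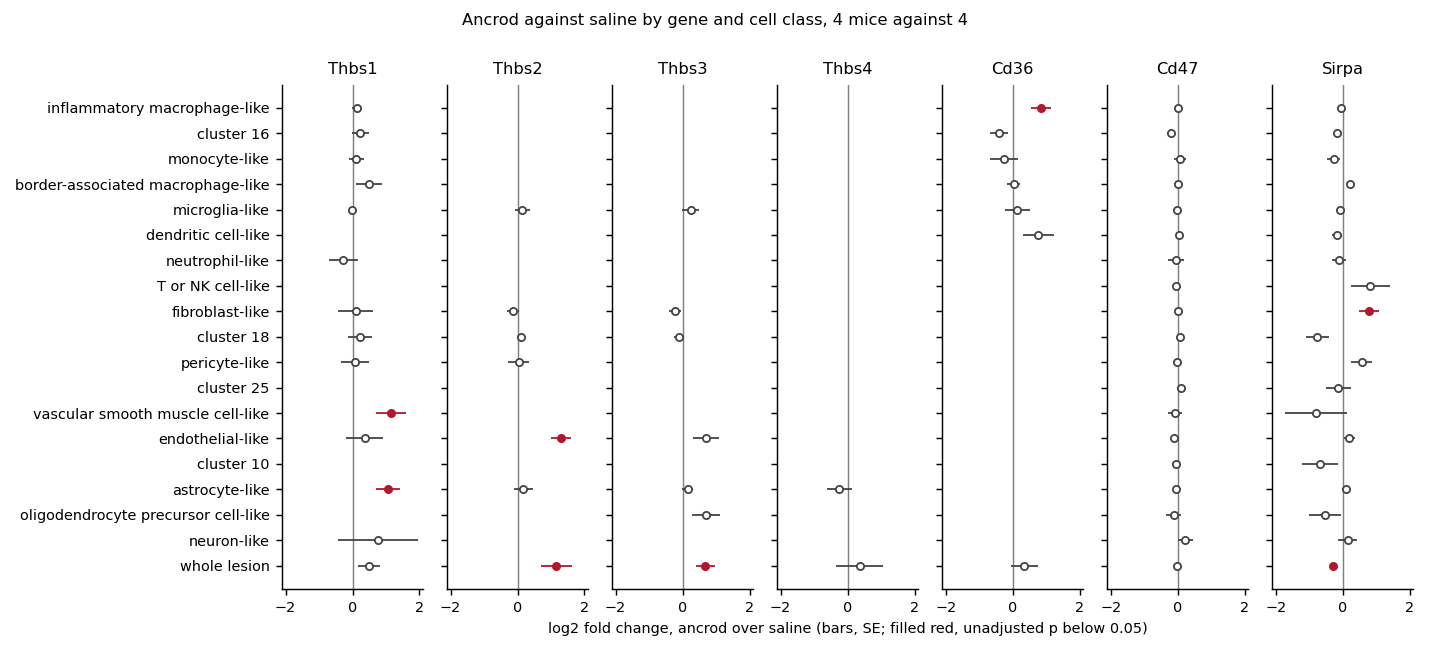
Log2 fold change of ancrod against control mice for each member and class that passed the filter on low counts, with bars of 1 standard error from edgeR's quasi-likelihood fit, red where the unadjusted p is under 0.05, and the whole lesion in the bottom row. No pair passed the adjusted threshold, Cd47 lies within -0.19 and 0.23 in every class, and the largest value is that of Thbs2 in endothelial-like cells (1.30 ± 0.30).

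Over the whole lesion, all kept cells of a mouse were summed. Fewer cells of a type, lower recovery of them in dissociation and less RNA per cell cannot be told apart in such a sum. None of the 7 passed the adjusted threshold of edgeR, which 0.0124% of 16183 genes did, and DESeq2 also called 0 of the 7 while calling 832 genes. Sirpa was 353, 376, 403 and 367 CPM in control and 330, 342, 302 and 278 CPM in ancrod mice, without overlap, which 8.64% of all genes showed. Its log2 fold change was -0.30 ± 0.10 (SE, edgeR adjusted p = 0.233), and -0.12 when all cells were thinned to the same depth. Thbs2 was 31.0, 22.6, 8.17 and 26.9 CPM in control and 33.9, 24.3, 58.4 and 81.7 CPM in ancrod mice, with a log2 fold change of 1.15 ± 0.46 (SE, edgeR adjusted p = 0.264) and overlapping groups. Thbs3 was 9.14, 5.24, 2.78 and 8.19 CPM in control and 9.74, 9.31, 11.1 and 10.7 CPM in ancrod mice, without overlap, with a log2 fold change of 0.68 ± 0.29 (SE, edgeR adjusted p = 0.283), or 0.45 without the third control mouse. These 3 had an unadjusted p under 0.05, as did 17.6% of all genes. Thbs1 (0.49), Cd36 (0.35), Thbs4 (0.36) and Cd47 (-0.02) had adjusted p-values of 0.457 to 0.884 in edgeR. The value for Cd36 ranged from 0.13 without the third ancrod mouse to 0.76 without the third control mouse, and was 0.14 without the first and 0.22 without the fourth control mouse. That for Thbs1 ranged from 0.28 without the first control mouse to 0.80 without the third, and that for Thbs4 from -0.64 without the second to 0.66 without the third ancrod mouse, with 0.07 without the third control mouse, 0.58 in batch 1 and 1.22 when all cells were thinned to the same depth.

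The share that a gene's leading class (the class with most of its UMIs over the 8 mice) gave in each mouse was compared by a two-sided exact permutation test over 70 arrangements, in which 0.0286 is the smallest p. For Cd36 and Thbs3 the class led through the ancrod mice and was not first in control mice, so their shares are a description, no p is given for them, and p-values were adjusted over the other 5 genes. The share of Cd36 from inflammatory macrophage-like cells was 22.8 ± 4.12% in control (19.1 to 26.9%) and 37.9 ± 9.71% in ancrod mice (28.2 to 49.9%), with a difference of 15 percentage points in batch 1 and 15.6 in batch 2. The share of Sirpa from microglia-like cells was 76.4 ± 1.95% in control (73.9 to 78.7%) and 64.7 ± 3.73% in ancrod mice (59.5 to 68.3%), a difference of -11.8 in batch 1 and -11.4 in batch 2. Microglia-like cells led Sirpa in both groups, the groups did not overlap, and the exact p of 0.0286 became 0.143 after adjustment. How often such shares separate over all genes was not computed, so the lack of overlap is not read as particular to Sirpa. Of all cells, inflammatory macrophage-like cells were 4.76 ± 0.814% in control and 8.08 ± 0.777% in ancrod mice, and microglia-like cells 42.5 ± 1.81% and 36.1 ± 5.95%. These shares of cells moved in the same direction as the shares of Cd36 and Sirpa UMIs, and their part in the result was not tested.

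The shares of the other 4 genes adjusted over did not pass either. With 5 genes, 1 gene alone at the smallest exact permutation p, 0.0286, becomes 0.143, so alone it could not pass. Cd47 from microglia-like cells was 29.7 ± 3.48% in control and 21.7 ± 3.60% in ancrod mice (exact permutation p = 0.0571, adjusted p = 0.143). Thbs2 from fibroblast-like cells was 57.6 ± 7.95% and 70.7 ± 10.8% (exact permutation p = 0.114), with a difference of 6.2 percentage points in batch 1 and 33.4 in batch 2, and Thbs3 from fibroblast-like cells, given as a description, was 26.3 ± 7.47% and 40.4 ± 17.6%. Fibroblast-like cells themselves numbered 91, 87, 28 and 112 in control and 196, 81, 333 and 380 in ancrod mice. Thbs1 from inflammatory macrophage-like cells was 46.6 ± 5.26% and 47.0 ± 6.15%, and Thbs4 from astrocyte-like cells 89.0 ± 12.1% and 88.9 ± 10.2%, with exact permutation p-values of 1 and 0.971.

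**Figure D5:**
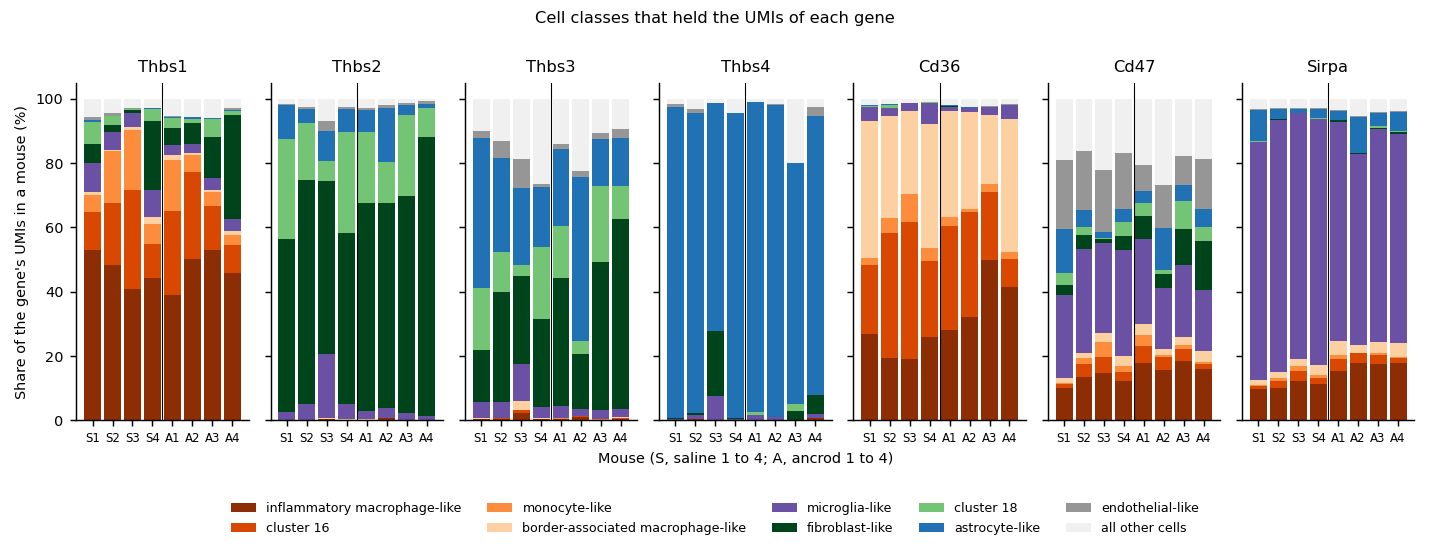
Share of each member's UMIs that came from each class, in percent, with 1 stacked bar per mouse (S, saline control; A, ancrod). Inflammatory macrophage-like cells give 19.1 to 26.9% of Cd36 UMIs in control and 28.2 to 49.9% in ancrod mice, and microglia-like cells give 73.9 to 78.7% and 59.5 to 68.3% of Sirpa UMIs.

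The partners of the 7 genes had their own distribution among classes. Of the receptors and binding partners of thrombospondins, the integrin subunit Itgav was highest in inflammatory macrophage-like cells (median 520 CPM), Itgb1 in vascular smooth muscle-like cells (1190 CPM) and Itga6 in endothelial-like cells (713 CPM). Cacna2d1 was highest in neuron-like cells (1080 CPM), and Lrp1, the scavenging receptor that clears thrombospondins, in cluster 18 (539 CPM). Ptprj, a phosphatase that binds thrombospondin-1, was highest in microglia-like cells (1270 CPM). Around Cd36, the lipid chaperone Fabp5 was highest in inflammatory macrophage-like cells (3000 CPM), and the lipid droplet gene Plin2 in cluster 16 (1860 CPM), the cluster second in Cd36. The scavenger receptor Msr1 was highest in border-associated macrophage-like cells (218 CPM), as was Cd36, and Pparg, a transcription factor known to induce Cd36, in monocyte-like cells (279 CPM). Downstream of SIRPα, Ptpn6 was highest in neutrophil-like cells (274 CPM) and the adaptor Fyb in monocyte-like cells (844 CPM). The paralog Sirpb1c was highest in monocyte-like cells (270 CPM) and at 0.0338 CPM in microglia-like cells, where Sirpa was highest.

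None of the 3 lists had a gene past the adjusted threshold between ancrod and control mice. Among 17 receptors and partners of thrombospondins, 20 of 215 gene and class pairs had an unadjusted p under 0.05 (12 higher in ancrod mice), 8 had groups without overlap, and the median log2 fold change was 0.03. Among 12 genes of Cd36 signalling and lipid handling, 18 of 157 pairs had an unadjusted p under 0.05 (12 higher), 6 had no overlap, and the median was 0.02. Among 13 genes of the Cd47 and Sirpa pathway, 19 of 172 pairs had an unadjusted p under 0.05 (6 higher), 10 had no overlap, and the median was -0.03. Over all pairs 5.57% had such a p, 3.94% had no overlap, and the median was near 0.

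The pairs with the lowest p among those without overlap were as follows. Groups did not overlap for 5.44% of genes in pericyte-like cells, 3.34% in cluster 10, 3.61% in border-associated macrophage-like, 8.38% in oligodendrocyte precursor-like, 10.3% in cluster 18 and 3.25% in dendritic-like cells, the 2 highest being classes tested in fewer than 8 mice. Tgfb1, encoding the latent growth factor that thrombospondin-1 activates, was 77.6 ± 6.79 CPM in control and 103 ± 14.0 CPM in ancrod mice in pericyte-like cells (SD, n = 4 each; edgeR adjusted p = 0.228), and Itgav was 33.3 ± 2.41 and 40.8 ± 2.90 CPM in cluster 10 (adjusted p = 0.85). Fyn, a kinase downstream of CD36, was 45.5 ± 8.83 and 70.7 ± 2.08 CPM in border-associated macrophage-like cells (edgeR adjusted p = 0.335), and the related kinase Lyn was 47.5 ± 12.5 and 20.8 ± 1.37 CPM in oligodendrocyte precursor-like cells of 3 mice per group (adjusted p = 0.999). Mertk, an engulfment receptor, was 42.0 ± 17.0 CPM in 3 control and 17.1 ± 3.55 CPM in 4 ancrod mice in cluster 18 (edgeR adjusted p = 0.239), and Sirpb1b was 27.8 ± 4.19 and 18.9 ± 1.78 CPM in dendritic-like cells (adjusted p = 0.644). Among 10 genes that respond to tissue dissociation, 44 of 179 pairs had an unadjusted p under 0.05 (18 higher) and 18 had no overlap, against 5.57% and 3.94% of all pairs, and 1 passed the adjusted threshold, against 0.00877% (0.144% in pericyte-like cells), Egr1 in pericyte-like cells, at 327 ± 94.2 CPM in control and 677 ± 181 CPM in ancrod mice (log2 fold change 1.09 ± 0.21 SE, edgeR adjusted p = 0.0492). The part of these genes in the results was not tested.

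Genes with the distribution most like each member were found by Pearson correlation of log2(CPM + 1) over 21 classes and clusters with at least 50 cells, which share libraries and depth, and are given as a description. The nearest to Thbs1 were Cebpb (r = 0.89), Msrb1 (0.81) and Cstb (0.81). The nearest to Thbs2 were Prrx2 (0.97), Islr (0.94) and Srpx (0.92), to Thbs3 Sfrp1 (0.96), Tmem53 (0.96) and Steap2 (0.96), and to Thbs4 Gpr37 (0.95), Slc7a10 (0.94) and Pdzph1 (0.94). The nearest to Cd36 were Nxpe5 (0.94), Ms4a4a (0.90) and F13a1 (0.90), to Cd47 Ahr (0.93), Diaph1 (0.85) and Napsa (0.84), and to Sirpa Lair1 (0.93), Sgpl1 (0.89) and Atp6v1c1 (0.89).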

How the data were processed

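The authors made 10x 3′ libraries and deposited raw UMI counts from Cell Ranger 7.1.0 and STAR (GRCm39), per the labels and methods. These counts were used without normalization by the authors, and every droplet was present. The members and gene lists were chosen with earlier results of these data known.

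Droplets were kept by the 2000 UMI and 20% mitochondrial limits. Doublets were scored by simulation and removed at 0.8% per 1000 droplets. Clustering used scanpy 1.11.5 and leidenalg 0.10.2 (3000 variable genes without the 57 member and list genes, 30 principal components, 20 neighbours, resolution 2). A cluster took the class of highest mean marker expression, and was left unnamed when another class had more markers among its 10 leading genes, fewer than 3 markers were detected, it had under 20 cells, or it was shallow or close to a second class without a leading marker (rules set after clusters were seen).

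UMIs were summed per mouse and class (at least 10 cells and 3 mice per group) and tested with edgeR 4.0.16 (TMM, filterByExpr, Benjamini-Hochberg). The edgeR test was also run on simulated data. DESeq2 1.42.0 served as alternative. Members were described in every class, and fold changes with errors are given for leading sources, for unadjusted p under 0.05 and for the whole lesion, others by range, and for lists the 2 lowest p without overlap. Some levels were chosen after their values were seen. These were Thbs1 in monocyte-like cells, Sirpa in cluster 16 and microglia-like clusters, and Cd36 in border-associated macrophage-like cells, cluster 16 and monocyte-like cells. Intervals and limits cover counting error or the normal approximation only.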

Additional observations from a re-analysis of the deposited data

Results flagged for a closer look

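Within the control and ancrod groups of 4 mice, 36 sets of member levels were checked for a mouse far from the others (Dixon's test), and 3 were marked, where chance marks about 1 in 20. Cd36 in inflammatory macrophage-like cells was 185 CPM in the third ancrod mouse and 73.2 to 79.5 CPM in the other ancrod mice. Thbs3 in fibroblast-like cells was 57.5 CPM in the third control mouse, which had 28 such cells, and 35.1 to 38.8 CPM in the other controls. Thbs1 in astrocyte-like cells was 3.91 CPM in the third control mouse and 2.59 to 2.77 CPM in the other controls.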

How the results depend on the processing

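No member passed the adjusted threshold, within classes or over the whole lesion, under the alternatives that were run: other size factors, DESeq2, no filter on low counts, batch as a covariate, batch 1 alone, doublets kept, stricter droplet limits, coarser clustering, best-score naming (both for classes only), thinning and leaving out each mouse. Of the 18 log2 fold changes of leading sources, pairs with an unadjusted p under 0.05 and the whole lesion, 13 kept their sign under every alternative run and 11 of 342 refitted values reversed. Those that changed sign are given here with the settings that turned them and, where leaving out a mouse did, with their whole range without 1 mouse, of which one end keeps the sign. Cd47 in microglia-like cells (-0.03) was 0.12 in batch 1 and -0.115 to 0.081 without 1 mouse. Thbs2 in fibroblast-like cells (-0.14) was 0.05 with coarser clustering and 0.05 with best-score naming, and Thbs4 in astrocyte-like cells (-0.25) was 0.31 after thinning and, without 1 mouse, -0.625 to 0.027. Cd47 in the whole lesion (-0.02) was 0.054 in batch 1 and -0.054 to 0.020 without 1 mouse, and Thbs4 in the whole lesion (0.36) was -0.64 to 0.66 without 1 mouse, the lowest without the second ancrod mouse, and 0.016 to 1.22 under the other alternatives (lowest with the replicate block, highest after thinning). The share of Thbs1 from inflammatory macrophage-like cells (difference 0.339 percentage points) became -0.0922 in batch 1 and -1.68 to 3.05 without 1 mouse, and that of Thbs4 from astrocyte-like cells (-0.0638) 2.51 in batch 1, 1.06 after thinning and -6.09 to 4.49 without 1 mouse. Coarser clustering gave 16 of 84 neighbouring classes past the threshold and best-score naming 16 of 91, against 0 of 119, with other classes and fewer pairs. The cause of these changes was not tested.

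The replicate numbers did not pair the mice: deviations of same-numbered mice correlated at -0.654, -0.362, -0.166 and 0.368. With the replicate block 0 member and class pairs and 0 members in the whole lesion passed.

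Precision is limited by 4 mice per group, with 1 in batch 2, by classes of few cells and by free RNA, whose part in the UMIs of each class was not estimated. Depth limits low genes such as Thbs4, with 1927 UMIs in all.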
